A study of Arabidopsis thaliana with 12 samples.

Results

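The genes described here were those that stood higher in wild-type Col-0 seedlings than in the tpst mutant, yet stood below the untreated mutant when the mutant received the peptide phytosulfokine (PSK). They were chosen from the measured values, so their levels in those groups are a description and not a finding. Reads per gene were scaled to CPM, the count per 1000000 counts of the library, averaged over the 3 libraries of a group, and expressed as the log2 ratio to untreated tpst after adding 0.5 CPM to both means. A gene was kept if it was protein-coding, lay on chromosomes 1 to 5, averaged at least 5 CPM in its highest group, had a ratio of at least 0.5 for Col-0 and had a ratio of -0.5 or less at both PSK doses. Of 32833 genes in the table, 15412 were protein-coding genes above the level minimum, and 105 of those met all the cuts. For comparison, 61 genes were higher both in Col-0 and at both PSK doses, 13 were lower in Col-0 and higher at both doses, and 9 were lower in all 3. The Col-0 cut alone took 1559 genes and the cuts on the PSK doses alone took 238.

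The RNA came from whole 7-day-old Arabidopsis thaliana seedlings grown in liquid medium, with 3 libraries in each of 4 groups. The design text and the study's methods give whole seedlings, whereas the extraction label speaks of shoots and roots taken apart, and whole seedlings are taken here. These were untreated Col-0, tpst with 1 µM PSK for 5 h, tpst with 100 nM PSK for 5 h, and untreated tpst. The mutant is a T-DNA insertion line (tpst-1) in the Col-0 background, and each library pooled 30 seedlings of an independent biological replicate. Untreated groups are labelled with no treatment at time 0, whereas the methods of the study describe a mock with water, so an effect of harvest time cannot be told apart from that of PSK. Column totals lay between 17066292 and 24948416 counts. TPST itself averaged 18 ± 0.480 CPM in Col-0, 8.17 ± 1.09 at 1 µM, 7.08 ± 0.799 at 100 nM and 7.37 ± 0.728 in untreated tpst (SD, n = 3 each), so the mutant's transcript was reduced but present in every library.

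PSK is a sulfated pentapeptide cut from secreted precursors, and it is perceived at the cell surface by the leucine-rich repeat (LRR) receptor kinases PSKR1 and PSKR2. The sulfate groups are added by the only tyrosylprotein sulfotransferase of Arabidopsis, TPST, so the mutant lacks active PSK together with other sulfated peptides such as PSY and the root growth factors. PSK signalling is known to promote cell expansion and root growth and to dampen responses to bacterial patterns, while transcription factors of the WRKY family, which bind W-box elements, control many genes of pattern-triggered immunity.

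Summed over the 105 genes, the level was 2776, 2683 and 2777 CPM in the Col-0 libraries, 567, 529 and 598 CPM at 1 µM PSK, 602, 611 and 576 CPM at 100 nM PSK, and 1328, 1292 and 1168 CPM in untreated tpst. Col-0 was the highest group for all 105 genes. The median log2 ratio to tpst was 1.08 for Col-0 (range 0.51 to 2.34), -0.87 for 1 µM PSK (range -2.78 to -0.51) and -0.91 for 100 nM PSK (range -2.35 to -0.50), against 0.08, -0.01 and -0.00 over all 15412 genes above the level minimum. All 3 ratios were at least 1 in size for 21 genes. With 0.5 CPM added to both means, the Col-0 mean was a median 4.38 times the 1 µM mean and at most 15.0 times. The 3 ratios share the untreated tpst libraries, so a low or high tpst value moves all of them, and they are not independent of each other. The sets of libraries did not overlap for 103 genes between Col-0 and tpst, where 31.7% of all genes above the minimum stood higher without overlap, for 100 genes between 1 µM PSK and tpst (16.0% lower without overlap) and for 102 between 100 nM PSK and tpst (11.0%). These counts follow from the cuts. The 9 genes with an overlap somewhere included CKX4 and PSK1, both close to a cut.

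**Figure D1:**
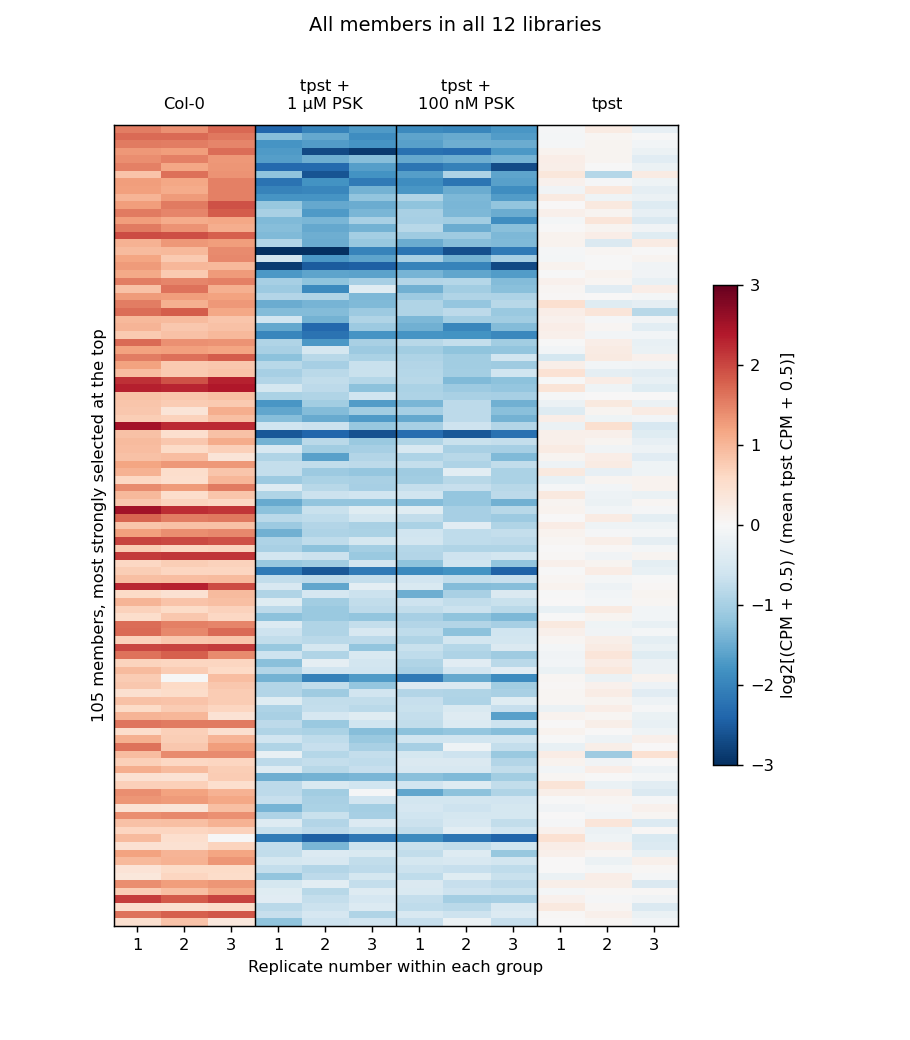
Heat map of the 105 genes (one line each, ordered by the smallest of their 3 log2 ratios, largest at the top) in the 12 libraries, with replicate numbers along the bottom. Colour gives the log2 ratio of the library's CPM plus 0.5 to the mean tpst CPM plus 0.5, from blue (-3) to red (3). The Col-0 libraries are red and both PSK groups blue over nearly the whole map, with group medians of 1.08, -0.87 and -0.91.

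The set held 11 genes of a family of receptor kinases with a malectin-like and an LRR ectodomain (subfamily LRR-I), which includes IOS1, a kinase known to act in pattern-triggered immunity and in susceptibility to downy mildew, and FRK1, a common marker gene of flagellin responses. Of 18 listed family genes above the level minimum, 11 belonged to the set (61.1%), against 0.681% of all genes above that minimum. IOS1 measured 37.3, 34.9 and 44.9 CPM in Col-0, 2.90, 4.10 and 3.16 CPM at 1 µM PSK, 3.87, 2.97 and 4.61 CPM at 100 nM PSK, and 16.9, 15.1 and 14.1 CPM in tpst. Its neighbour AT1G51790 measured 22.3, 19.9 and 25.6 CPM in Col-0, 1.00, 1.46 and 1.92 CPM at 1 µM, 1.58, 1.51 and 1.84 CPM at 100 nM, and 7.11, 8.80 and 6.16 CPM in tpst. In both genes the 4 groups of libraries were separate except for the 2 PSK doses, which overlapped each other. AT1G51890 was lower still, at 0.950, 0.703 and 0.466 CPM at 1 µM and 0.676, 0.732 and 0.601 CPM at 100 nM, with 10.8, 10.9 and 10.03 CPM in Col-0 and 2.84, 3.16 and 2.98 CPM in tpst. The 11 kinases had median log2 ratios of 1.56 for Col-0, -1.32 for 1 µM and -1.25 for 100 nM.

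Across the whole listed family, 31 of 41 genes could be tested with edgeR (quasi-likelihood test, Benjamini-Hochberg adjusted p below 0.05). Relative to tpst, 24 were higher and 1 lower in Col-0, where 14.6% of all tested genes were higher and 13.3% lower. At 1 µM PSK 14 were lower and 0 higher (3.45% and 3.00% of all tested genes), and at 100 nM PSK 14 were lower and 0 higher (1.91% and 1.29%). The 11 chosen kinases are among these counts, which are therefore no independent evidence of a direction. The other family genes split. AT1G51820 moved like the set but stayed under the level minimum, with 4.56 ± 1.23 CPM in Col-0, 0.274 ± 0.158 at 1 µM, 0.288 ± 0.0931 at 100 nM and 1.64 ± 0.220 in tpst. FRK1, also under the minimum, was higher in Col-0 (log2 fold change 1.5, SE 0.40, edgeR adjusted p = 0.00581) and lower at 100 nM (-1.94, SE 0.54, edgeR adjusted p = 0.0423), while at 1 µM the value of -1.75 (SE 0.55) did not pass (edgeR adjusted p = 0.0554). Its Col-0 call was lost without Col-0 replicate 1 (edgeR adjusted p = 0.0621) and its 100 nM call without any one of tpst replicates 1 and 3, the 3 libraries at 100 nM and 1 µM replicate 3 (highest edgeR adjusted p = 0.201, without 100 nM replicate 1). AT1G51860 was far higher in Col-0 (22.7 ± 4.09 CPM, against 5.32 ± 0.665 in tpst) and narrowly missed the set, because its ratio at 100 nM was -0.47. AT1G51805, the most abundant of the array in tpst, was lower in all 3 comparisons, at 46.4 ± 8.44 CPM in Col-0, 37.3 ± 1.06 at 1 µM, 40.0 ± 2.87 at 100 nM and 51.7 ± 2.42 in tpst (SD, n = 3 each). Its fold changes were small, -0.26 (SE 0.09, edgeR adjusted p = 0.0340), -0.46 (SE 0.09, edgeR adjusted p = 0.00233) and -0.37 (SE 0.09, edgeR adjusted p = 0.0209) on the log2 scale. The Col-0 call was lost without Col-0 replicate 1 or 2 or tpst replicate 2 or 3 (highest edgeR adjusted p = 0.208), and the 100 nM call without tpst or 100 nM replicate 2 or 3 (highest edgeR adjusted p = 0.130).

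**Figure D2:**
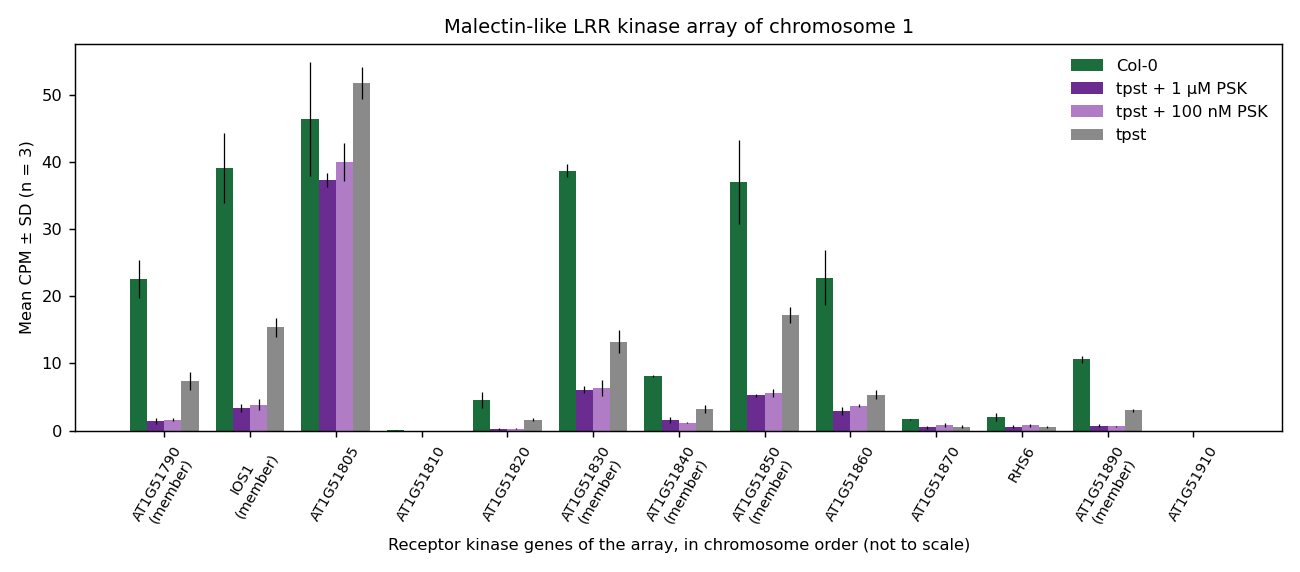
Mean CPM (bars) and SD (lines, n = 3) of the malectin-like LRR kinase genes that lie in an array on chromosome 1, in chromosome order along the bottom, for Col-0, tpst with 1 µM PSK, tpst with 100 nM PSK and tpst. The 6 genes of the set stand highest in Col-0 and lowest at the PSK doses, whereas AT1G51805 stands above 37 CPM in every group and AT1G51860 reaches 22.7 CPM in Col-0, against 5.32 CPM in tpst.

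Neighbouring genes shared the pattern in several places. Allowing gaps of up to 10 kb, 19 of the 105 genes lay in 9 runs, 7 of them pairs of related genes or parts of an array. The matching share for other sets of genes was not computed, so these runs are a description only. On chromosome 1 these were AT1G51790 with IOS1 (chr1:19206615-19218053, TAIR10) and AT1G51830, AT1G51840 and AT1G51850 (chr1:19242654-19256927). AT1G51805 and AT1G51820, described above, lie between these runs. AT1G51830 measured 39.5, 37.6 and 38.9 CPM in Col-0, 6.40, 5.45 and 6.42 CPM at 1 µM, 6.94, 7.09 and 5.05 CPM at 100 nM, and 14.5, 13.9 and 11.3 CPM in tpst. Of the AT1G51830 span, 13.0% is copied elsewhere in the genome at 95% identity or more. AT1G51850 measured 38.7, 30.1 and 42.3 CPM in Col-0, 4.90, 5.45 and 5.34 CPM at 1 µM, 6.22, 5.49 and 5.09 CPM at 100 nM, and 17, 18.5 and 16.1 CPM in tpst. AT1G51840, annotated as kinase-related, was lower throughout, with a Col-0 mean of 8.06 CPM and a tpst mean of 3.20 CPM. A further kinase pair, AT2G28960 and AT2G28970, lay at chr2:12437718-12448365 on opposite strands. Their Col-0 ratios were both 1.62, and their ratios at 1 µM were -1.32 and -0.64. AT3G46280, a kinase-like gene next to AT3G46270 at chr3:17000328-17008528, had the deepest ratio of the set at 100 nM (-2.35), with 56.0, 42.9 and 55.9 CPM in Col-0, 4.75, 5.39 and 4.51 CPM at 1 µM, 5.86, 4.76 and 6.01 CPM at 100 nM, and 33.7, 33.6 and 23.6 CPM in tpst. Its neighbour had a Col-0 mean of 5.40 CPM and a tpst mean of 1.42 CPM, and 33.3% of that gene's span is copied elsewhere in the genome at 95% identity or more.

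Not every neighbour took part. Between RBOHG and AMC2 on chromosome 4 lies FSD1, an iron superoxide dismutase gene that averaged 784 CPM in Col-0, 1394 CPM at 1 µM, 1188 CPM at 100 nM and 1284 CPM in tpst. Its Col-0 ratio of -0.71 has the opposite sign to those of RBOHG (1.36) and AMC2 (0.72), an NADPH oxidase gene and a metacaspase gene. PER70, between PER69 and PER71 on chromosome 5, was under the level minimum with ratios of 0.81 for Col-0, -0.02 for 1 µM and -0.07 for 100 nM. PER62 and NAC92 are separated by AT5G39590 and AT5G39600, with ratios of 0.15 and 0.16 for Col-0, -0.15 and 0.03 for 1 µM, and -0.12 and 0.06 for 100 nM.

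Class III peroxidases, secreted enzymes that make or consume hydrogen peroxide in the cell wall, gave the most abundant members. Of 41 above the level minimum 6 belonged to the set (14.6%, against 0.681% of all genes above it). Per unit of gene length, PER71 and PER69 had the highest Col-0 levels of all 105 genes, 122 ± 6.52 and 106 ± 8.54 FPKM (a level divided by gene length and scaled by library, SD, n = 3). PER71 measured 162, 174 and 186 CPM in Col-0, 24.0, 19.9 and 27.3 CPM at 1 µM, 27.3, 26.7 and 24.5 CPM at 100 nM, and 105, 88.9 and 89.6 CPM in tpst. PER69 measured 161, 175 and 152 CPM in Col-0, 19.2, 22.0 and 25 CPM at 1 µM, 21.0, 22.0 and 22.9 CPM at 100 nM, and 70.7, 64.8 and 48.3 CPM in tpst. In both genes every PSK library lay below every tpst library, and the doses overlapped. PER4, a gene induced by bacterial patterns, was rare in the mutant at 1.44, 1.14 and 1.34 CPM, against 8.12, 8.51 and 6.56 CPM in Col-0, and reached 0.8, 0.117 and 0.984 CPM at 1 µM and 0.811, 0.229 and 0.240 CPM at 100 nM. PER33, PER37 and PER62 completed the group. Of 59 peroxidases tested, 36 were higher and 6 lower in Col-0, 1 was higher and 11 lower at 1 µM, and 1 was higher and 7 lower at 100 nM than in tpst (edgeR, adjusted p below 0.05). Over all tested genes the shares higher and lower were 14.6% and 13.3% in Col-0, 3.00% and 3.45% at 1 µM, and 1.29% and 1.91% at 100 nM. The 6 chosen peroxidases are among those counted, so the counts are no independent evidence of a direction.

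Genes of indole defence metabolism formed a smaller group. CYP81F2 hydroxylates indole glucosinolates, the IGMT enzymes methylate the products, and CYP71A12 acts on an indole oxime on the way to camalexin-related compounds. Of 16 listed genes above the level minimum, 4 belonged to the set (25%, against 0.681% of all genes above it). CYP81F2 measured 13.2, 15.8 and 15.3 CPM in Col-0, 3.1, 1.88 and 2.49 CPM at 1 µM, 1.85, 2.24 and 2.12 CPM at 100 nM, and 6.57, 4.38 and 7.40 CPM in tpst. CYP71A12 varied most between replicates, with 17, 29.6 and 24.2 CPM in Col-0, 3.70, 1.11 and 2.28 CPM at 1 µM, 2.57, 4.57 and 2.73 CPM at 100 nM, and 11.7, 4.87 and 10.9 CPM in tpst, where the highest 100 nM library came close to the lowest tpst library. IGMT3 averaged 29.1 CPM in Col-0, against 15.1 CPM in tpst, and IGMT2 averaged 13.0 and 8.54 CPM. The IGMT2 and IGMT3 genes lie side by side at chr1:7389981-7396823, and over 90% of each span is copied in the other at 95% identity or more, so their separate counts are uncertain. The genes around this pair went other ways. IGMT1 was higher in Col-0 (11.0 ± 2.44 CPM, against 2.17 ± 0.539 in tpst, edgeR adjusted p = 5.90e-09) with no call at either dose, and IGMT4 fell at both doses (log2 fold change -0.50 at 1 µM and -0.51 at 100 nM, SE 0.07 each, edgeR adjusted p = 4.10e-05 and 3.43e-05) with 0.03 for Col-0. The myrosinase PEN2 and the transporter PEN3, which act downstream of CYP81F2 in defence at the cell surface, also fell with PSK but stood level in Col-0. PEN3 averaged 554 ± 25 CPM in Col-0, 344 ± 5.43 at 1 µM, 366 ± 7.35 at 100 nM and 519 ± 19.5 in tpst, and its fold changes were -0.00 for Col-0, -0.58 for 1 µM and -0.50 for 100 nM (SE 0.05 each, edgeR adjusted p = 0.961, 3.91e-09 and 6.76e-08). Over the list, 18 genes were tested, of which 9 were higher and 2 lower in Col-0, 1 higher and 7 lower at 1 µM, and 0 higher and 6 lower at 100 nM, the 4 chosen genes included. Of all tested genes, Col-0 had 14.6% higher and 13.3% lower, 1 µM PSK had 3.00% and 3.45%, and 100 nM PSK had 1.29% and 1.91%.

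Genes that rise after perception of microbial patterns were represented by CYP81F2, IOS1, MLO12, PER4 and PER71. These were 5 of 14 listed genes above the minimum (35.7%, against 0.681% of all genes above it). MLO12, a membrane protein that with its relatives conditions powdery mildew susceptibility, measured 16.0, 12.4 and 14.0 CPM in Col-0, 0.650, 0.645 and 1.35 CPM at 1 µM, 0.766, 0.915 and 0.401 CPM at 100 nM, and 6.03, 5.27 and 4.62 CPM in tpst. Every PSK library stood below every tpst library, and every tpst library below every Col-0 library. Its span overlaps AT2G39190 on the other strand, which averaged 109 CPM in Col-0, against 118 CPM in tpst, and whether counting used strand is not given in the sources used here. Other listed genes fell with PSK without being called higher in Col-0. WRKY11 fell at both doses (-0.63 at 1 µM and -0.68 at 100 nM, SE 0.09 each, edgeR adjusted p = 2.08e-05 and 8.93e-06) and was lower rather than higher in Col-0 (-0.23, SE 0.08, edgeR adjusted p = 0.0460, a call lost under 9 alternative fits). These 9 were DESeq2 (adjusted p = 0.0615) and the fits without any one of Col-0 replicates 1 and 2, tpst replicates 2 and 3, the 3 libraries at 100 nM and 1 µM replicate 2 (highest edgeR adjusted p = 0.210, without tpst replicate 2). WRKY22 fell at both doses (-0.79, SE 0.20, edgeR adjusted p = 0.0136 at 1 µM, and -1.10, SE 0.20, edgeR adjusted p = 0.000963 at 100 nM) with -0.24 (edgeR adjusted p = 0.366) in Col-0. Its 1 µM call was lost without tpst replicate 3 or 1 µM replicate 1 (edgeR adjusted p = 0.0832 and 0.0813). FOX1 averaged 3.75 ± 2.34 CPM in Col-0, 0.798 ± 0.341 at 1 µM, 0.824 ± 0.172 at 100 nM and 2.94 ± 1.06 in tpst, with log2 fold changes of -1.84 at 1 µM (SE 0.45, edgeR adjusted p = 0.0170) and -1.82 at 100 nM (SE 0.43, edgeR adjusted p = 0.0238), while the Col-0 spread spanned that of tpst. FOX1 lay under the level minimum, and its calls were not followed singly in the alternative fits. Over the 18 genes tested in this list, 9 were higher and 2 lower in Col-0 (14.6% and 13.3% of all tested genes), and 9 were lower and 0 higher at each dose (3.45% and 3.00% at 1 µM, 1.91% and 1.29% at 100 nM). The 5 members, selected for these directions, are included.

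The receptors that perceive microbial patterns act upstream of these responses. Of 12 listed receptors and partners tested, 4 were higher and 0 lower in Col-0 (14.6% and 13.3% of all tested genes), 0 higher and 6 lower at 1 µM (3.00% and 3.45%), and 0 higher and 4 lower at 100 nM (1.29% and 1.91%). Of the 9 above the level minimum 0 were members, and at the overall share of 0.681% a list of that length need hold none. The list did not take in every such receptor, since the chitin co-receptor LYK4 was a member and was not listed. FLS2, the flagellin receptor, averaged 28.9 ± 1.24 CPM in Col-0, 18.5 ± 0.862 at 1 µM, 19.9 ± 1.32 at 100 nM and 26.3 ± 3.45 in tpst. LORE, a receptor kinase for bacterial lipid metabolites, fell at both doses (-0.97 at 1 µM and -0.87 at 100 nM, SE 0.13 each, edgeR adjusted p = 2.59e-05 and 9.57e-05), and its Col-0 value of 0.30 did not pass (SE 0.12, edgeR adjusted p = 0.0692). Of 13 salicylic acid genes tested, 3 were higher and 2 lower in Col-0, where 14.6% and 13.3% of all tested genes were. At 1 µM 1 was higher and 1 lower (3.00% and 3.45% of all tested genes), and at 100 nM 0 were called (1.29% and 1.91%). Of the salicylic acid genes, DMR6, which degrades salicylic acid, was higher in Col-0 and at 1 µM (16.2 ± 1.73 and 7.29 ± 1.01 CPM, against 4.53 ± 0.598 in tpst, edgeR adjusted p = 1.21e-09 and 0.00576), the 1 µM call being lost without tpst replicate 2 or 1 µM replicate 3 (edgeR adjusted p = 0.0550 and 0.0575). In the PSK pathway the precursor gene PSK1 was a member only by a narrow margin, with a Col-0 ratio of 0.51 on 5.11, 5.02 and 5.27 CPM in Col-0, 1.75, 2.05 and 2.49 CPM at 1 µM, 1.85, 1.78 and 2.32 CPM at 100 nM, and 4.37, 3.61 and 2.43 CPM in tpst. At 1 µM its highest library overlapped the lowest of tpst. The receptor gene PSKR1 fell at both doses (-0.56 at 1 µM and -0.64 at 100 nM, SE 0.12 each, edgeR adjusted p = 0.00271 and 0.000980), with 0.04 in Col-0 (SE 0.11, edgeR adjusted p = 0.816).

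Nutrient uptake genes gave the set its most abundant transporter. PHT1;1, the main phosphate importer of the root surface, measured 133, 130 and 124 CPM in Col-0, 12.9, 13.7 and 12.9 CPM at 1 µM, 14.1, 15.8 and 15.6 CPM at 100 nM, and 44.0, 47.9 and 42.7 CPM in tpst. The groups did not overlap anywhere, and replicates differed by little, but 72.3% of the gene's span is copied in PHT1;2 at 95% identity or more. PHT1;2 itself was counted at 1.09 ± 0.382 CPM in Col-0 and 0.254 ± 0.254 in tpst. SULTR1;2, a root sulfate importer, measured 104, 77.3 and 78.9 CPM in Col-0, 24.9, 22.1 and 27.7 CPM at 1 µM, 24.0, 21.5 and 21.0 CPM at 100 nM, and 50.7, 41.8 and 41.2 CPM in tpst. NRT3.1, the partner protein of the high-affinity nitrate importers, measured 45.1, 41.0 and 39.4 CPM in Col-0, 8.65, 10.8 and 10.9 CPM at 1 µM, 10.1, 11.0 and 8.98 CPM at 100 nM, and 27.0, 22.6 and 26.7 CPM in tpst. The other genes of these 3 pathways showed different combinations. NRT2.1, the importer that NRT3.1 serves, was lower in Col-0 too, at 6.57 ± 2.93 CPM, against 3.20 ± 1.25 at 1 µM, 2.87 ± 1.3 at 100 nM and 14.9 ± 2.67 in tpst, with log2 fold changes of -1.29 (SE 0.38, edgeR adjusted p = 0.0335), -2.19 (SE 0.42, edgeR adjusted p = 0.0150) and -2.38 (SE 0.42, edgeR adjusted p = 0.0156). Its Col-0 call was lost without any one of Col-0 replicates 2 and 3, tpst replicates 1 and 3 and 100 nM replicate 3 (highest edgeR adjusted p = 0.102, without Col-0 replicate 3), and its 100 nM call without tpst replicate 1 or 100 nM replicate 3 (edgeR adjusted p = 0.0545 and 0.0851). PHT1;4, the second phosphate importer, was slightly lower in all 3 comparisons (-0.31, -0.40 and -0.50, SE 0.09 each, edgeR adjusted p = 0.0102, 0.00560 and 0.000900), with the Col-0 call lost without tpst replicate 3 (edgeR adjusted p = 0.0589) and the 1 µM call without 1 µM replicate 2 (0.0501). The xylem-loading transporters PHO1 and NRT1.5 were higher in Col-0 (126 ± 5.69 and 124 ± 7.45 CPM, against 75.2 ± 1.77 and 54.3 ± 1.00 in tpst) with no call at either dose. The sulfate reduction gene APR2 was lower in Col-0 (-0.85, SE 0.06, edgeR adjusted p = 1.76e-11) and LSU1, a sulfur-starvation gene, was higher with PSK (1.68 at 1 µM and 1.09 at 100 nM, SE 0.29 each, edgeR adjusted p = 0.000600 and 0.0412), the 100 nM call being lost without any one of the tpst or 100 nM libraries (highest edgeR adjusted p = 0.236, without tpst replicate 2). Of 14 iron-deficiency genes tested, 10 were higher and 1 lower in Col-0 (14.6% and 13.3% of all tested genes). At each dose 0 were higher and 1 lower (3.00% and 3.45% of all tested genes at 1 µM, 1.29% and 1.91% at 100 nM).

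**Figure D3:**
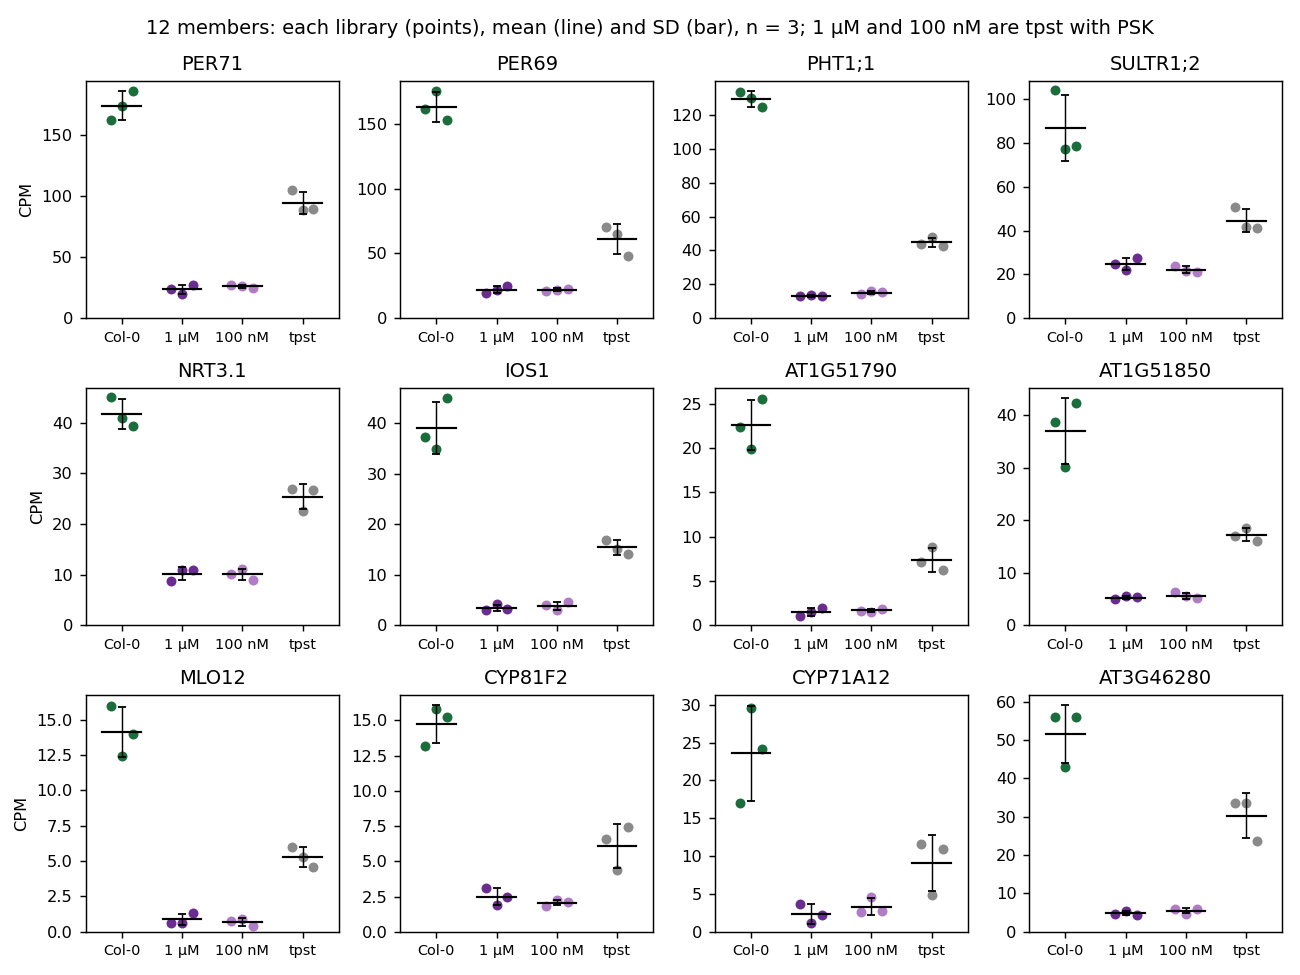
CPM of 12 genes of the set in each library (points), with group mean (line) and SD (bar, n = 3), for Col-0, tpst with 1 µM PSK, tpst with 100 nM PSK and tpst, each panel with its own axis from 0. In every panel the Col-0 points lie highest and the PSK points lowest, as in PHT1;1 with 124 to 133 CPM in Col-0, 12.9 to 15.8 CPM at the 2 doses and 42.7 to 47.9 CPM in tpst.

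The remaining members covered many functions, named here after their values were seen. Transporters and channels included AMT1-3 for ammonium, KAT2 for potassium, CNGC3, ABCG4, the amino acid permease AAP3, the sugar carriers STP4 and PLT6, and the calcium pump ACA12. Regulators included WRKY9, WRKY27, WRKY72, MYB55, NAC92, which promotes leaf senescence, and HRS1, which acts in nitrate and phosphate signalling. The 3 WRKY genes were 3 of 36 above the minimum (8.33%, against 0.681% of all genes above it). Defence-related members included the chitin co-receptor LYK4, the E3 ligase PUB22, which restrains pattern responses, MLO6, RBOHG and HIR3. Hormone-related members were CKX4 and CYP735A2 of cytokinin metabolism, ACS7 of ethylene synthesis and ARGOS, a regulator of organ size. Enzymes included GSTF14, a glutathione transferase, UGT72E1, a glucosyltransferase of monolignols, FLS5, a flavonol synthase relative, and CWINV1, a cell wall invertase. CWINV1 differed little between replicates, at 95.9, 97.0 and 98.6 CPM in Col-0, 30.5, 29.3 and 30.8 CPM at 1 µM, 33.9, 30.1 and 31.4 CPM at 100 nM, and 53.3, 49.0 and 50.7 CPM in tpst. GSTF14 measured 43.4, 39.3 and 52.7 CPM in Col-0, 4.15, 4.28 and 6.48 CPM at 1 µM, 5.00, 6.08 and 4.57 CPM at 100 nM, and 16.8, 22.5 and 14.9 CPM in tpst. AT3G54040, annotated only as a PAR1 protein, reached 60.9 ± 4.90 FPKM in Col-0, level with PHT1;1 at 60.4 ± 3.02 and FLS5 at 60.1 ± 4.34 FPKM (SD, n = 3). AT5G48430 measured 15.9, 15.3 and 20.9 CPM in Col-0, 1.55, 0.527 and 0.414 CPM at 1 µM, 0.901, 0.869 and 1.52 CPM at 100 nM, and 6.62, 6.49 and 5.36 CPM in tpst. The largest Col-0 ratios belonged to genes that were rare in the mutant, such as AT5G43520 (2.34, on means of 7.90 CPM in Col-0 and of 1.16 CPM in tpst).

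The comparison of the doses was not among the cuts, although both doses had to pass the same cut, which limits how far a member can differ between them. None of the 105 genes differed between 1 µM and 100 nM PSK by the edgeR test (0 higher and 0 lower at adjusted p below 0.05), where 0.239% of all 20506 tested genes did, 0.127% higher and 0.112% lower. At an unadjusted p below 0.05 there were 9 members (8.57%), against 10.2% of all tested genes, and DESeq2 also called 0 members in either direction. DESeq2 gave no adjusted p for the member AT1G11540, so its result does not cover all 105. The median log2 difference was -0.06 (range -0.94 to 0.93, median SE 0.22), against -0.0007 over all tested genes. Of the 105 values 98 lay within 0.5 of 0, a share that was not computed over all tested genes. Below 0 were 65 (61.9%, against 50.2% of all tested genes). The smallest p belonged to PER33, with 4.55, 6.45 and 6.06 CPM at 1 µM and 8.92, 8.19 and 8.70 CPM at 100 nM, a log2 difference of -0.59 (SE 0.15, edgeR adjusted p = 0.104) in which the libraries did not overlap. This gene passed in 3 alternative fits, without Col-0 replicate 3 (edgeR adjusted p = 0.00852), with only the PSK groups fitted (0.0310) and with no filter on low counts (0.0493), and its adjusted p reached 0.426 without 100 nM replicate 1. GULLO2, an oxidase related to ascorbate synthesis enzymes, went the other way at 5.10, 3.87 and 4.56 CPM for 1 µM and 3.87, 3.02 and 3.09 CPM for 100 nM (0.46, SE 0.16, edgeR adjusted p = 0.296). RBOHG stood at 2.5, 3.75 and 3.68 CPM for 1 µM and 4.82, 4.25 and 4.45 CPM for 100 nM (-0.44, SE 0.16, edgeR adjusted p = 0.329). UGT72E1 was lower at 1 µM by a small margin, 33.4, 28.0 and 32.4 CPM against 36.3, 35.4 and 35.4 CPM at 100 nM (-0.18, SE 0.07, edgeR adjusted p = 0.349). AT1G11540 had the largest positive value (0.93, SE 0.34, edgeR adjusted p = 0.328) on 1.35, 1.05 and 2.64 CPM at 1 µM and 0.586, 0.869 and 1.2 CPM at 100 nM. AT2G36690 passed only without the third 1 µM library, since its 1 µM values were 0, 0.117 and 0.984 CPM, against 0.811, 0.457 and 0.882 CPM at 100 nM. Without overlap, 9 members were lower at 1 µM (11.4% of all genes above the minimum) and 0 were higher (9.62%).

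**Figure D4:**
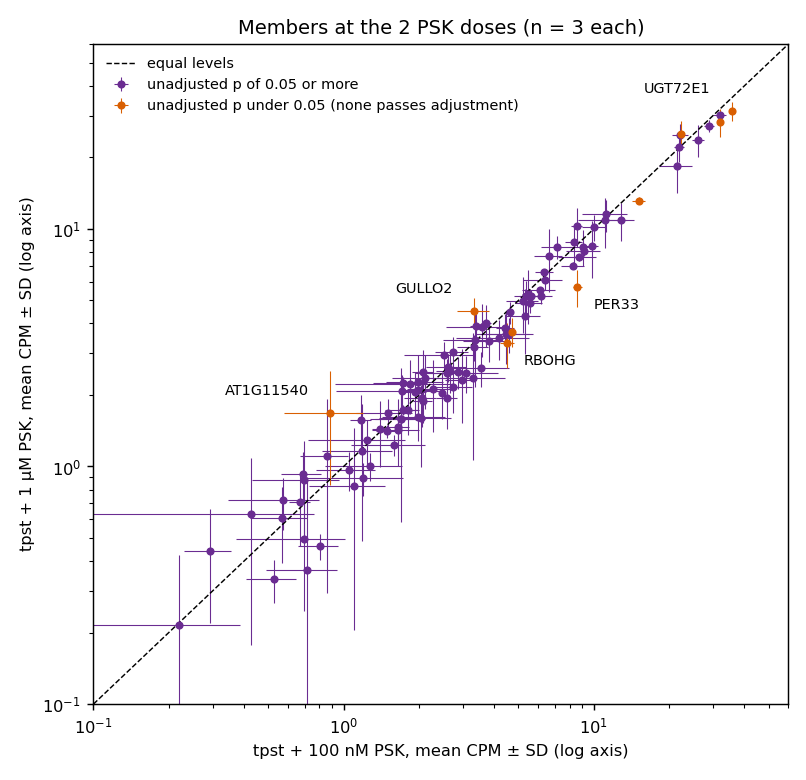
Mean CPM at 1 µM PSK (vertical) against 100 nM PSK (horizontal) for the 105 genes on log axes, with SD in both directions (n = 3 each) and a dashed line of equal levels; orange marks the 9 genes with an unadjusted p below 0.05. The points follow the line over the whole range of levels, with a median log2 difference of -0.06.

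A feature the cuts did not use was the promoter sequence. W-boxes were searched as TTGACT or TTGACA on both strands from 250 bases before to 50 after the annotated gene start. They were present in 78 of 105 members (74.3%), against 37.3% of 15411 protein-coding genes above the level minimum whose window lay within the chromosome. At least 2 were present in 34.3% of members, against 9.05% of those genes. Genes lowered at both doses but within the cut for Col-0 had a share of 65.3% (124 genes), and those higher in Col-0 and at both doses had 36.1% (61 genes), so a high share was not particular to the genes that were also high in Col-0. TTGACT occurred in 55.2% of members and 21.5% of genes above the minimum, and TTGACA in 35.2% and 20.2%. Of the other motifs, GNATATNC, the P1BS element of phosphate starvation genes, was in 12.4% and 6.09%, CACGTG (G-box) in 2.86% and 8.86%, and GCCGCC (GCC box) in 3.81% and 2.66%. Over 1000 bases before the start W-box shares were 87.6% and 76.4%. These shares are descriptions, and a match is not evidence of binding.

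**Figure D5:**
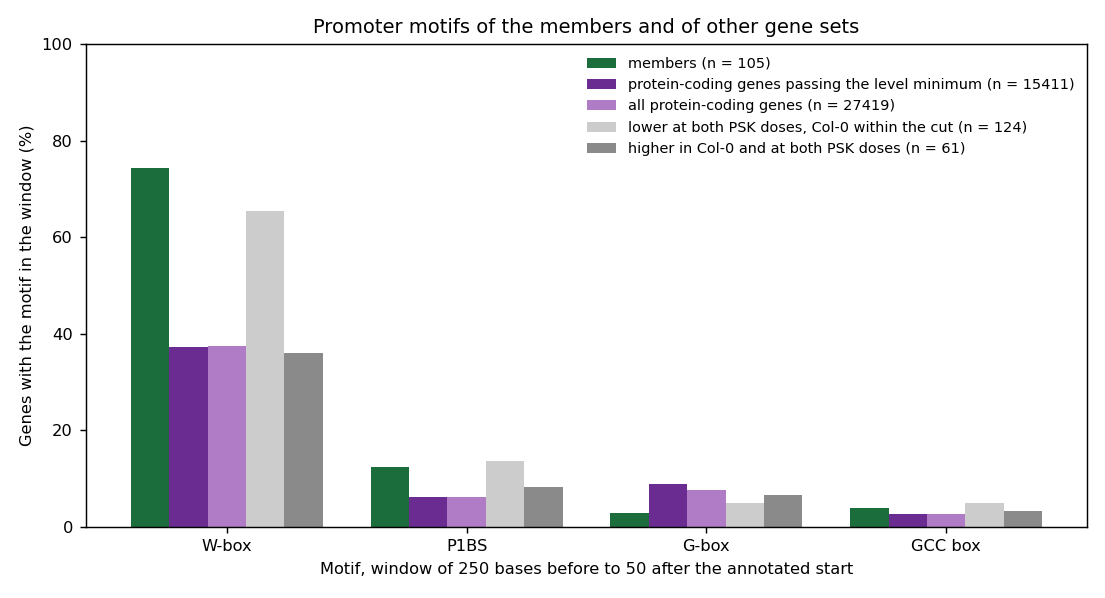
Percentage of genes (vertical, from 0 to 100) with at least 1 match to each motif in the window of 250 bases before to 50 after the gene start, for the 105 members and 4 other gene sets named in the legend. The W-box bar of the members reaches 74.3%, that of genes lowered only by the PSK cuts 65.3%, and those of both background sets about 37%, while the other motifs stay under 15% in all sets.

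In the 250 bases before the start alone, 69 members had a W-box (65.7%, against 32.8% of the genes above the minimum) and 36 had none. It was present in 8 of 11 malectin-like LRR kinases, 6 of 7 cytochromes P450 and 2 of 6 peroxidases, and the difference between these small groups was not tested. Of 8 members matched as transporters or channels by their annotation, 2 had a W-box there, CNGC3 and AT1G11540. PHT1;1, SULTR1;2, NRT3.1, AMT1-3, KAT2 and ABCG4 had none. The carriers AAP3, STP4 and PLT6 and the pump ACA12, which that match did not take in, had a W-box there. Members with a W-box had median log2 ratios of 1.08 for Col-0, -0.92 for 1 µM and -0.94 for 100 nM, and members without had 1.17, -0.84 and -0.82. The 30 members with 2 or more had -1.24 for 1 µM and -1.12 for 100 nM, against 0.99 for Col-0. These ratios are the ones the cuts used, the 30 are among the 69, and the differences were not tested. The 7 windows printed next, from the TAIR10.1 RefSeq genome in the direction of transcription and ending at the base before the annotated start, show members with and without matches. They were picked after the motif counts were seen, as the 2 windows with the most matches, 4 with 3 matches in genes described above, and PER69, the neighbour of PER71, with none. Capitals mark the W-boxes, on either strand.
PUB22 (chr3:19442428-19442677, minus strand): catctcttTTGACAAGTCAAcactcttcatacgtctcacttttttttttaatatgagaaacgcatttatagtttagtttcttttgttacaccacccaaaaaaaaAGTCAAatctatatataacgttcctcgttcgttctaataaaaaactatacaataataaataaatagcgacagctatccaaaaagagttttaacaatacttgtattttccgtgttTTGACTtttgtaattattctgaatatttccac
CRRSP38 (chr3:7770649-7770898, plus strand): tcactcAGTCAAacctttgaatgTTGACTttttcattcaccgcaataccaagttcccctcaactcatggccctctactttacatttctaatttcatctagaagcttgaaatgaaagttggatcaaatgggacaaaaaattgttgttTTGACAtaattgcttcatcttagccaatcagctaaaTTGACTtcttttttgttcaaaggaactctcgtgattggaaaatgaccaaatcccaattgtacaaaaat
AT1G51850 (chr1:19256928-19257177, minus strand): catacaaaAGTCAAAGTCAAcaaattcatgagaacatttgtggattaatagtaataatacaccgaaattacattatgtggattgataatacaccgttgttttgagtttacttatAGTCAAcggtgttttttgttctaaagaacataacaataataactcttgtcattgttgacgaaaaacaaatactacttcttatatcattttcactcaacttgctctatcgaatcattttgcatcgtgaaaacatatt
AT3G46280 (chr3:17008529-17008778, minus strand): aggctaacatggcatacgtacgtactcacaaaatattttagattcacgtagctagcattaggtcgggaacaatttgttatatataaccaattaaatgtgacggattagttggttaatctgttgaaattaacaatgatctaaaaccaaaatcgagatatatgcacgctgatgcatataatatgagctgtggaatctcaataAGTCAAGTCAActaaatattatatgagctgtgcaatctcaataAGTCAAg
AT5G48430 (chr5:19629168-19629417, minus strand): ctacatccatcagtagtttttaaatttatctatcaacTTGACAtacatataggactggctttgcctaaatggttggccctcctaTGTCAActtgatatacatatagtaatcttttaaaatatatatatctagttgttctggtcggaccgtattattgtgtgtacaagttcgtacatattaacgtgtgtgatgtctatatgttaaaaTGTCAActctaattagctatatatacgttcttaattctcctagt
PER71 (chr5:25661008-25661257, minus strand): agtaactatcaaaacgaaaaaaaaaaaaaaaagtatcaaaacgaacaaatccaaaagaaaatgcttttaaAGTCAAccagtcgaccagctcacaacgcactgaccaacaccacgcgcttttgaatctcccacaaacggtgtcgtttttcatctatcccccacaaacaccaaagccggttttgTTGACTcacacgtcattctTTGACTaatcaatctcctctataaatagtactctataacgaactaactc
PER69 (chr5:25652248-25652497, minus strand): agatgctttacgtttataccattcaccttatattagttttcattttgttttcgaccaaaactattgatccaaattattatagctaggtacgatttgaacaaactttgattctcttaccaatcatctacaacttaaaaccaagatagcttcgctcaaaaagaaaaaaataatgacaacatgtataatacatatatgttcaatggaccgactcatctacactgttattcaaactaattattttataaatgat
In PUB22 and AT1G51850 a pair of W-boxes lies end to end, and in AT3G46280 a pair shares bases, while the last match of AT3G46280 ends at the base before the final one of the window.

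Several values move together with the groups and touch these results. In libraries of mixed tissue, fewer cells of a type and less RNA per cell cannot be told apart. Of 18 root marker genes, 15 were higher in Col-0 and 0 lower (edgeR, median log2 fold change 1.32, where 14.6% and 13.3% of all tested genes were), and their summed level ranged from 4299 to 4652 CPM in Col-0, 2552 to 2734 CPM at 1 µM, 2694 to 2788 CPM at 100 nM and 2579 to 2730 CPM in tpst. Of 19 photosynthesis genes listed as shoot markers, Col-0 had 15 lower and 0 higher. With PSK, 3 root markers were higher at 1 µM (3.00% of all tested genes were) and 2 at 100 nM (1.29%), and none was lower. The photosynthesis genes had 2 higher at 1 µM and 0 at 100 nM, and 0 lower at either dose. The part of root content in the ratios of the members was not tested. Of 5 root hair markers tested, 5 were higher and 0 lower in Col-0 (14.6% and 13.3% of all tested genes). At 1 µM 1 of them was higher (3.00%), at 100 nM 0 (1.29%), and 0 were lower at either dose (3.45% and 1.91%). No marker gene of these lists was a member. Above the level minimum were 12 root, 5 root hair and 19 photosynthesis genes, and at the overall share of 0.681% lists of that length need hold none. Of 4 morning clock genes tested, 0 were called in any comparison. Of 7 evening clock genes tested, 1 was higher at 1 µM (3.00% of all tested genes), 1 at 100 nM (1.29%) and 2 in Col-0 (14.6%), and 0 were lower. The part of harvest time was not tested. Reads of 19 members may be shared with an overlapping gene, 18 of them on the other strand.

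At the edges of the cuts, the members nearest the Col-0 cut were PSK1 (0.505), AT5G02760 (0.516) and STP4 (0.520), and just outside stood EARLI1 (0.497), GLIP5 (0.493) and AT1G65486 (0.475). At 1 µM the nearest members were GULLO2, AT5G19240 (both -0.510) and CKX4 (-0.512), with PP2A8 (-0.499), AT3G51350 (-0.465) and ATEXO70H1 (-0.464) outside. At 100 nM ATL15 (-0.504), HRS1 (-0.505) and LRX6 (-0.523) were inside, and F6H1 (-0.498), AT1G18390 (-0.493) and FLOT1 (-0.492) outside. Leaving out each of the 12 libraries in turn, 68 members were kept every time and 37 were lost at least once.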

How the data were processed

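The authors prepared poly(A) libraries from whole seedlings with a NEBNext Ultra kit, trimmed reads with fastp, aligned them to TAIR10 with HISAT2 2.0.5 and deposited counts per gene from featureCounts 1.5.0-p3. The authors also deposited FPKM, whose denominators lay between 0.976 and 1.08 times the column totals, so FPKM here carries an added library scaling. The strand setting and the handling of multiply aligned reads are not given in the sources used here.

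All 12 libraries entered a single edgeR 4.0.16 quasi-likelihood fit (R 4.3.3) with TMM scaling and a filter on low counts, which left 20506 genes and 99.96% of counts. P-values were Benjamini-Hochberg adjusted over all tested genes at 0.05, and DESeq2 1.42.0 was an alternative. On simulated data for the dose comparison (20311 genes), 97 of 100 genes with a log2 change of 1 and 100 of 100 with a change of 2 were called, with 13 false calls. The share called at the members' levels, a median of 2.51 CPM at 1 µM and 2.86 CPM at 100 nM PSK, was not computed. The simulation therefore cannot tell how many dose changes of these sizes would be missed among the members. Member CPM used column totals. Coordinates of all 105 members were the same in RefSeq TAIR10.1. Copied stretches of at least 150 bases were found with BLAST 2.17.0.

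The set and the gene lists were chosen with earlier results of these data known. Genes named were members of the lists, the 10 with the largest smallest ratio, the 10 highest in Col-0, the 5 with the smallest dose p, 3 either side of each cut, members within 10 kb of another, and list genes described with them. Where others are named, they were chosen after their values were seen. At 3 against 3, permutation could not go below p = 0.1, so single genes were tested only in the model.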

Additional observations from a re-analysis of the deposited data

How the results depend on the processing

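The set held 94 genes after TMM scaling, 123 and 89 with pseudocounts of 0.1 and 1, 139 and 67 with level minimums of 1 and 10 CPM, 151 and 44 with log2 cuts of 0.4 and 0.75, and 97 to 119 without each library in turn. TMM scaling lowered the Col-0 ratio of the median gene by 0.0970. Between 1 µM and 100 nM PSK, all genes gave 26 higher and 23 lower calls. They gave 64 and 33 with no filter on low counts, 115 and 38 with DESeq2, 330 and 137 with only the PSK groups fitted, and 4 to 346 higher and 10 to 189 lower without each library in turn, most of them without Col-0 replicate 3 (346 and 189), which was in neither group compared. In members, 0 were called higher under every alternative, and 1 was called lower with no filter, 1 with only the PSK groups and 0 to 1 without each library in turn (1 without Col-0 replicate 3 and 1 without 1 µM replicate 3). Replicate numbers were not used as pairs in the main fit. Same-numbered correlations lay between -0.0805 and 0.0598, and different-numbered ones between -0.0899 and 0.0998. This check does not show whether same-numbered libraries shared a growth batch. With the replicate number as a block, the dose comparison gave 64 higher and 31 lower genes over all and 0 members. The share of members with a W-box was 74.3% in the main window and 87.6% over 1000 bases before the start, and 15 and 22 members lay in neighbour runs at 5 and 20 kb, against 19 at 10 kb. Size factors of DESeq2 type within edgeR gave 26 and 23 genes. Among tested list genes followed singly, 733 alternative values kept their call and 51 lost it, the most for WRKY11 in Col-0. Of the list counts, 1423 stayed within 1.5 times and 113 did not.

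Limits are the 3 libraries per group, members near the cuts, and genes rare in the PSK groups, where the lowest summed count over 3 libraries was 12.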
